A study of Mus musculus with 6 samples.

Results

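The Obox genes (oocyte-specific homeobox) are a mouse family of small homeobox genes, and 6 of them were examined here: Obox1, Obox2, Obox3, Obox5, Obox6 and Obox7. They were chosen by symbol, not by their values, and all 6 had a row among the 55291 gene symbols of the deposited table. Of these, 5 passed the filter on low counts and entered the test; Obox6 did not. RNA-seq libraries were made from pools of 10 fully grown oocytes each, 3 libraries from Gdf9-cre Nat10 conditional knockout females (Nat10 cKO), in which Cre driven by the oocyte promoter Gdf9 removes Nat10, and 3 from wild-type (WT) females. NAT10 acetylates cytidine in RNA. All females received PMSG, the gonadotropin that drives follicle growth, 32 to 48 h before collection by the series' design text and 36 to 48 h by the samples' protocol. All pools received an ERCC spike-in, but the deposited values hold 0 ERCC rows, so spike-in reads could not be used here. The sources used here do not give ages, strain, whether WT females carried floxed or Cre alleles, or the animals behind each pool, so p-values measure the spread between these libraries, which may be technical.

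As background, OBOX proteins bind DNA through a homeodomain and are best known for helping to activate the embryonic genome after fertilization. In the mouse, Obox1, Obox2, Obox5 and Obox7 are maternal transcripts stored in the growing oocyte, whereas Obox3 is transcribed after fertilization. Obox6 is known from the preimplantation embryo and from work on reprogramming to pluripotency.

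The 6 genes lie in 1 cluster on chromosome 7 (GRCm38, 14659496 to 15839678), a span of 1180 kb that holds 71 annotated genes, 60 of them pseudogenes and 6 protein-coding. The protein-coding genes of this span are the 6 members themselves. From the proximal end the order is Obox7 (14659496 to 14665996), Obox2 (15388721 to 15398545), Obox1 (15388948 to 15556866), Obox3 (15479825 to 15639902), Obox5 (15750131 to 15759800) and Obox6 (15833241 to 15839678). Obox3 and Obox6 are on the minus strand and the other 4 on the plus strand. In GENCODE M21, exons of Obox1 and Obox2 overlap each other by 59 bases on the same strand. Exons of the other 4 members overlap no exon of another gene.

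The promoter windows are shown because those of the abundant members Obox2, Obox5 and Obox7 are closer to each other than to that of Obox3, which was at the edge of detection in these oocytes. The windows are RefSeq's (GRCm38.p6), from 250 bases before to 50 after the annotated start, read 5′ to 3′; 5 of the 6 members had one. Capitals mark exact matches, on either strand, to 3 short elements. The first is the E-box, CANNTG, which basic helix-loop-helix factors such as FIGLA bind. The second is the Bicoid-type homeodomain site named after its fly factor, spelled TAATCC, which stands in these windows on the opposite strand. The last is a TATA-type run, spelled TATATAA.
Obox2, chr7:15388601-15388900, plus strand: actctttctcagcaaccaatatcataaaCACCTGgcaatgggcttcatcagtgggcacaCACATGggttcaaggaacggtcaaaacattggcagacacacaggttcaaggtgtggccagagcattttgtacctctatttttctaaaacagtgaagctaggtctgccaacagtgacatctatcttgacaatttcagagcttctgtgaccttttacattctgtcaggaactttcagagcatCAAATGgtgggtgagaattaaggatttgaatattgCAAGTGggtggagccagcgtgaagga
Obox5, chr7:15750120-15750419, plus strand: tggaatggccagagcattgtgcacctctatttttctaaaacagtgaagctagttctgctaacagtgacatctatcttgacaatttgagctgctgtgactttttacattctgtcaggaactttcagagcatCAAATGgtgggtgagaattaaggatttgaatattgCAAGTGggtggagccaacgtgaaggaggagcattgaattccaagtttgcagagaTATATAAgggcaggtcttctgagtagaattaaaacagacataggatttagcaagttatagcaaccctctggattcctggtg
Obox7, chr7:14659458-14659757, plus strand: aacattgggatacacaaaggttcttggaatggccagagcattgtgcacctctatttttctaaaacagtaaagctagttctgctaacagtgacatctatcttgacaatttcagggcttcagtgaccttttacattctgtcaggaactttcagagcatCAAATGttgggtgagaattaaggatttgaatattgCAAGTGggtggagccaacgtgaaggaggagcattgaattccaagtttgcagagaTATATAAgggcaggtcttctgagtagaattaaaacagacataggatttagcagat
Obox3, chr7:15639728-15640027, minus strand: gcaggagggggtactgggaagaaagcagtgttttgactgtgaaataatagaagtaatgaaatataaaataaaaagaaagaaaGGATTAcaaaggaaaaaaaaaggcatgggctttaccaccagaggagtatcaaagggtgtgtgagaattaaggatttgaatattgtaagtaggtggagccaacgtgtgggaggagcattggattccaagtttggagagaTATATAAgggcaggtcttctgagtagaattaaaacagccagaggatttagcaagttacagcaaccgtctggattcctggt

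The windows of Obox5, Obox7 and Obox3 each held 1 TATA-type run, at -31, -5 and -30 from the annotated start, as did that of Obox1, at -19. From 100 bases before this run to 40 bases from its start, Obox5 and Obox7 shared 139 of 140 bases, Obox1 and Obox5 138, and Obox3 and Obox7 124. Over the aligned bases of whole windows, every pair among Obox1, Obox2, Obox5 and Obox7 was 92.6% identical or more, whereas Obox3 was 81.2 to 88.9% identical to each of them. The Obox2 window held no such run. Over the 203 bases that aligned it was identical to that of Obox1. The Obox1 window, chr7:15547007-15547306, lies inside the GENCODE span of Obox1 but not at its first base. It is a separate place from the Obox2 window. The E-box CAAGTG, which both hold, stood at 25 from the annotated start in Obox2 and at -73 in Obox1. The Obox2 window thus ended before the place that matches the run of Obox1, and the bases beyond it were not examined.

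Obox5 and Obox7 each held 2 E-boxes, and the same pair of E-boxes stood in Obox1 and Obox2, whereas Obox3 held no E-box. Across all 32851 promoters of the table, 72.3% held an E-box on either strand, 3.24% the TATA-type run and 7.06% the Bicoid-type site. Among the Obox windows the Bicoid-type site matched in Obox3 alone, and it matched in 4 of 25 promoters of the early zygotic gene list described below (16.0%). The NOBOX-type element, spelled TAATTG, matched in 0 of the 5 Obox windows and in 8.0% of all promoters. The TATA-type run was chosen after the sequences were seen. The matches are descriptions of letters, not of binding.

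The libraries held 74.1, 47.4 and 71.0 M recovered reads in Nat10 cKO replicates 1, 2 and 3, and 33.5, 34.1 and 65.5 M in WT replicates 1, 2 and 3. Levels are CPM (read counts scaled to a common library size) adjusted by TMM, which sets the bulk of oocyte mRNA equal between libraries. Nat10 had 5.72, 5.97 and 6.32 CPM in Nat10 cKO libraries, against 42.1, 50.1 and 39.3 CPM in WT libraries. The oocyte markers Zp3 and Gdf9 averaged 4283 ± 432 and 6370 ± 414 CPM in Nat10 cKO libraries, against 2920 ± 195 and 4958 ± 385 CPM in WT libraries (SD, n = 3 each). Oocyte genes did not all lie higher in Nat10 cKO: Zar1 averaged 731 ± 23.2 CPM in Nat10 cKO libraries and 1165 ± 196 CPM in WT libraries, and it was 1 of 7 oocyte identity genes that fell, against 16 that rose. Across all tested genes, 6422 of 18353 (35.0%) passed limma's adjusted p threshold of 0.05, 3190 (17.4%) higher and 3232 (17.6%) lower in Nat10 cKO oocytes.

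Obox2, Obox5, Obox1 and Obox7 were abundant in oocytes of both genotypes, and Obox3 and Obox6 were at the edge of detection. Per kilobase of annotated exon, Obox2 averaged 1272 ± 32.7 CPM in Nat10 cKO libraries and 1487 ± 263 CPM in WT libraries (SD, n = 3 each), and its mean over the 6 libraries ranked 17 among 53180 genes with a length. Obox5 came next, with 666 ± 12.1 and 730 ± 123 CPM per kb in the Nat10 cKO and WT libraries, and then Obox1, with 606 ± 14.3 and 712 ± 119 CPM per kb. In each of the 6 libraries Obox5 lay above Obox1, but over the WT libraries their ranges overlapped, 599 to 842 against 585 to 821 CPM per kb. Obox7 held 163 ± 10.8 CPM per kb in Nat10 cKO libraries and 155 ± 22.7 in WT libraries and ranked 337. Obox6, at 0.062 to 0.125 CPM per kb in Nat10 cKO libraries and 0.092 to 0.277 in WT libraries, and Obox3, at 0.021 to 0.035 and 0.058 to 0.099, ranked 17408 and 20608.

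**Figure D1:**
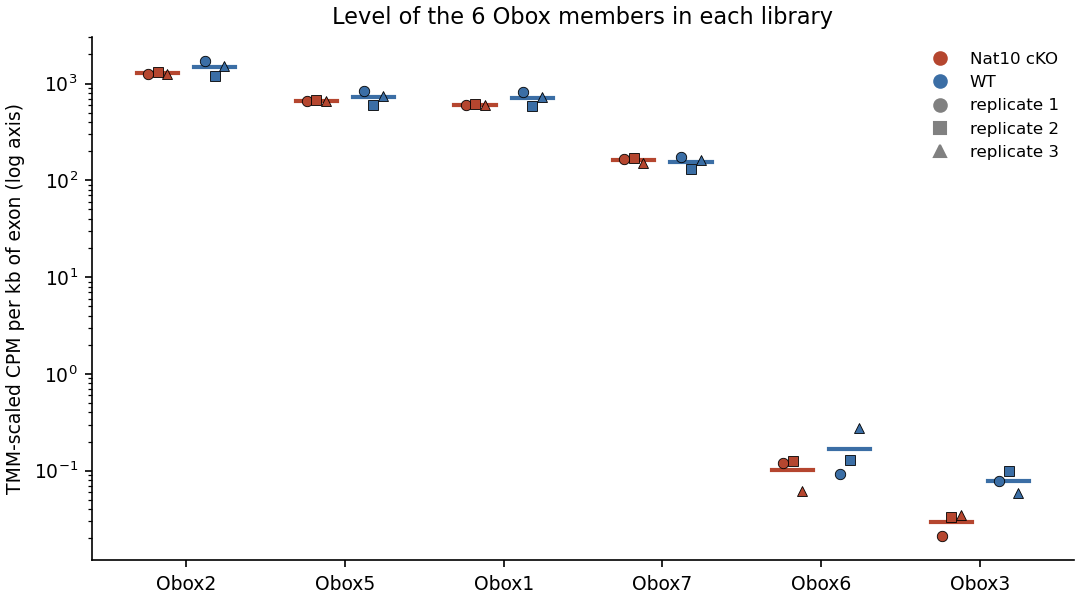
TMM-scaled level per kilobase of exon (log axis) of the 6 Obox members in Nat10 cKO (red, left) and WT (blue, right) oocyte libraries; symbols mark the replicate and bars the mean of 3 libraries. Obox2, Obox5, Obox1 and Obox7 lie between 130 and 1731 CPM per kb, and Obox6 and Obox3 between 0.021 and 0.277.

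Together the 6 members took 0.498% of reads in Nat10 cKO libraries and 0.553% in WT libraries, on average. Their summed level was 4864, 5065 and 4856 CPM in Nat10 cKO libraries, against 6483, 4587 and 5755 CPM in WT libraries. The 3 Nat10 cKO libraries lay close together and inside the WT range, with WT replicate 2 below all of them. The difference of the log2 means was -0.17, and the SD between libraries of 1 genotype was 0.18 on the same log2 scale.

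Obox2, the most abundant member, had 2058, 2156 and 2068 CPM in Nat10 cKO libraries, against 2849, 1988 and 2506 CPM in WT libraries. Obox1, its near-identical neighbour, had 1138, 1182 and 1132 CPM in Nat10 cKO libraries, against 1559, 1111 and 1385 CPM in WT libraries. For both genes WT replicates 1 and 3 lay above the Nat10 cKO libraries and WT replicate 2 lay below them, so the groups overlapped. Their log2 changes on the log2(CPM + 1) scale were -0.21 (95% interval -0.45 to 0.03, limma adjusted p = 0.156) for Obox2 and -0.22 (-0.45 to 0.01, adjusted p = 0.13) for Obox1.

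Obox5, another maternal member, had 1402, 1451 and 1414 CPM in Nat10 cKO libraries, against 1798, 1279 and 1603 CPM in WT libraries. Obox7, the fourth maternal member, had 266, 276 and 242 CPM in Nat10 cKO libraries, against 277, 208 and 261 CPM in WT libraries. Obox5 followed the pattern of Obox2 and Obox1, and for Obox7 the Nat10 cKO values fell within the WT range. The log2 change of Obox5 was -0.12 (95% interval -0.35 to 0.11, limma adjusted p = 0.414) and that of Obox7 was 0.08 (-0.15 to 0.31, adjusted p = 0.602).

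Obox3, the zygotic member, was read 5, 5 and 8 times in Nat10 cKO libraries, against 8, 11 and 12 times in WT libraries. These are 0.067, 0.105 and 0.111 CPM in Nat10 cKO libraries, against 0.247, 0.316 and 0.186 CPM in WT libraries. The 3 Nat10 cKO libraries lay below the 3 WT libraries, as 1 group lies beyond the other for 48.3% of all tested genes. Obox3 passed the filter on low counts through its WT libraries alone, the group where it was higher. Its separation and its tests are therefore not independent of the filter. Limma gave a log2 change of -0.19 (adjusted p = 0.142), a scale that understates low genes. The size depended on the pseudocount and the tool: it was -0.84 with a pseudocount of 0.1 (limma adjusted p = 0.113), -1.37 with edgeR (adjusted p = 0.105) and -1.39 with DESeq2 (adjusted p = 0.204). Obox6 was read 12, 8 and 6 times in Nat10 cKO libraries, against 4, 6 and 24 times in WT libraries, with overlapping groups and no test. The 49 other rows whose symbol starts with Obox, 48 of them pseudogene symbols, were also near 0: 33 had no read in any library, and the highest value was 30 reads in 1 library. Obox8, the row not named as a pseudogene, was read 0 times in each Nat10 cKO library and 2 times in each WT library. The pseudogenes Obox4-ps3 and Obox3-ps8, which alone among them passed the filter, averaged 0.276 and 0.291 CPM in Nat10 cKO libraries, against 0.186 and 0.413 CPM in WT libraries.

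Of the 5 tested members, 0 passed the limma threshold, against 35.0% of all tested genes; at an unadjusted p under 0.05, limma gave 0. On the recovered reads, edgeR and DESeq2 also called 0 of the 5, and at an unadjusted p under 0.05 edgeR gave 1, Obox3, and DESeq2 gave 0. Obox3 had entered the test through its WT libraries alone. Of the 2 tested pseudogenes, each of the 3 tools called 0, with 0 at an unadjusted p under 0.05. WT replicate 2 decided the calls of Obox1, Obox2 and Obox5: without it, they passed with log2 changes of -0.34, -0.34 and -0.24 (limma adjusted p = 0.00374, 0.00335 and 0.0194), 3 members called against 34.2% of all tested genes, and Obox7 stood at -0.03 (adjusted p = 0.786). With any other library left out, 0 members passed. WT replicate 2 was the lowest of the 6 libraries for 17.4% of tested genes and the highest for 17.6%. It carries the largest factor in the deposited table, 1.38, against 0.908 to 1.00 in the other 5 libraries.

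The direction also depended on the scaling. In the values as deposited, where each library carries its factor, Obox1, Obox2, Obox5 and Obox7 had log2 changes of 0.14, 0.15, 0.24 and 0.44 (limma adjusted p = 0.867, 0.857, 0.762 and 0.557), 0 members called against 7.97% of all tested genes. With the factors applied to per-read shares, they stood at -0.44, -0.43, -0.34 and -0.14, and Obox1 and Obox2 passed (adjusted p = 0.0470 and 0.0380), 2 members against 22.1% of all tested genes. These scalings moved the median of all tested genes to 0.24 and -0.15, against 0.00096 under TMM. Relative to that median, Obox1 and Obox2 were at -0.10 and -0.09 as deposited and at -0.29 and -0.28 on per-read shares.

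**Figure D2:**
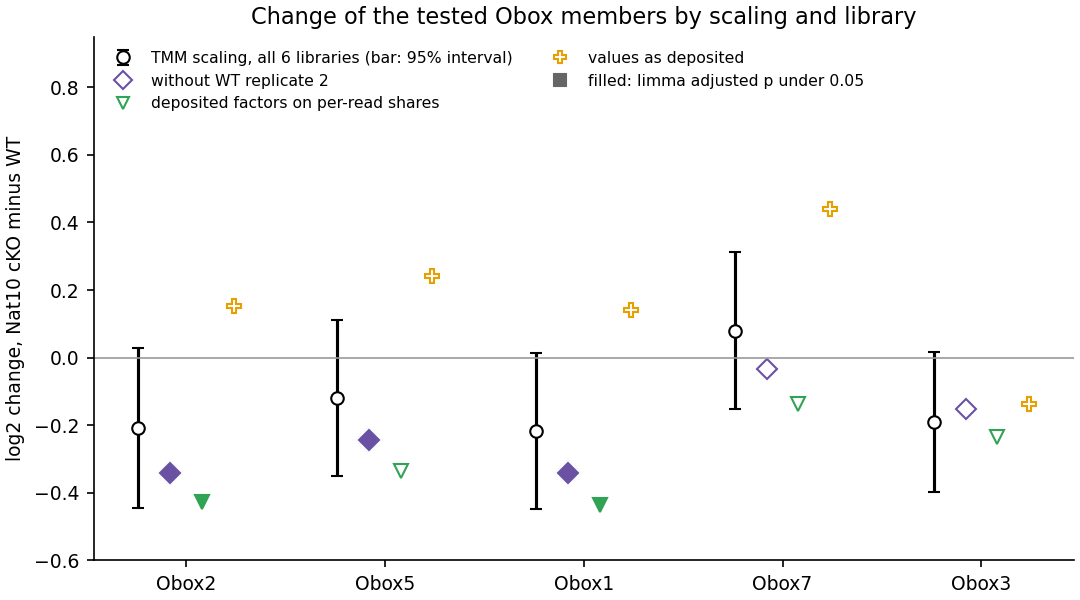
Log2 change, Nat10 cKO minus WT, of the 5 tested Obox members under TMM scaling with all 6 libraries (black, with the 95% interval), without WT replicate 2, with the deposited factors on per-read shares, and in the values as deposited; filled symbols passed limma's adjusted p of 0.05. Obox1, Obox2 and Obox5 are negative in the first 3 settings and positive as deposited, and 3 of the 5 members are filled without WT replicate 2.

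The make-up of the Obox reads, which no library scaling changes, varied less between libraries than their level. In share, the groups did not overlap for the 4 abundant members. Nor did they for Obox3, at the edge of detection, with 0.00137 to 0.00228% in Nat10 cKO libraries and 0.00324 to 0.00689% in WT libraries. Obox2 made up 42.3, 42.6 and 42.6% of the summed Obox reads in Nat10 cKO libraries, against 43.9, 43.3 and 43.5% in WT libraries. Obox1 made up 23.4, 23.3 and 23.3% in Nat10 cKO libraries, against 24.1, 24.2 and 24.1% in WT libraries. Obox5 made up 28.8, 28.7 and 29.1% in Nat10 cKO libraries, against 27.7, 27.9 and 27.8% in WT libraries. Obox7 made up 5.47, 5.44 and 4.98% in Nat10 cKO libraries, against 4.28, 4.53 and 4.53% in WT libraries. In the shares of Obox2 and Obox1 the Nat10 cKO libraries were below the whole WT range, and in those of Obox5 and Obox7 above it. The mean differences, Nat10 cKO minus WT, were -1.12 (Obox2), -0.770 (Obox1), 1.04 (Obox5) and 0.851 (Obox7) percentage points. Each gave an exact two-sided permutation p = 0.1, the smallest that 3 libraries against 3 allow, so no share could pass a threshold of 0.05, and shares of 1 sum are not independent of each other. By level rather than share, the groups did not overlap for 48.3% of all tested genes, and no such figure was computed for shares.

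Against Obox2 itself, Obox7 had 12.5 ± 0.667 reads per 100 Obox2 reads in Nat10 cKO libraries and 10.2 ± 0.404 in WT libraries (SD, n = 3 each), a ratio of 1.22. Obox5 had 67.9 ± 0.544 reads per 100 in Nat10 cKO libraries and 63.8 ± 0.638 in WT libraries, a ratio of 1.06. Both differences kept the groups apart (exact permutation p = 0.1 each, 0.1 being the smallest possible). Obox1 had 54.9 ± 0.324 reads per 100 in Nat10 cKO libraries and 55.3 ± 0.587 in WT libraries, with overlapping groups (exact permutation p = 0.6).

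**Figure D3:**
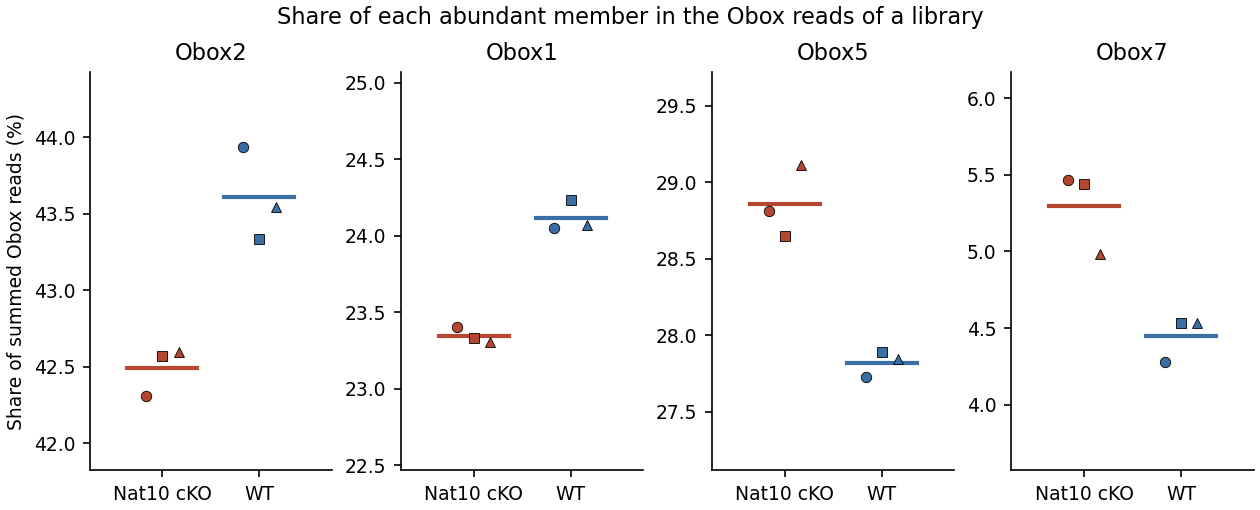
Share (%) of Obox2, Obox1, Obox5 and Obox7 in the summed reads of the 6 Obox members, per library, for Nat10 cKO (red, left) and WT (blue, right); bars are means of 3 libraries, symbols mark the replicate (circle 1, square 2, triangle 3), and each axis spans an equal range that does not start at 0. The Nat10 cKO points are the lower ones for Obox2 and Obox1 and the higher ones for Obox5 and Obox7.

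The sources used here do not say how reads that match more than 1 copy were counted, and the members are alike in sequence. Over aligned coding bases, Obox1 and Obox2 were 98.5% identical, and Obox1, Obox2, Obox3, Obox5 and Obox7 were 92.9% identical or more in every pair. Obox6 was 76.6 to 80.1% identical to the others. Of all stretches of 50 bases in the annotated transcripts of Obox2, 34.9% were found in no other annotated gene, and 62.7% were shared with Obox1. For Obox1 the unshared part was 42.6%, for Obox7 78.9%, for Obox3 79.8%, for Obox5 81.9% and for Obox6 95%. Obox7 shared 17.1% of its stretches with Obox5 and 3.74% with Obox2. The split between Obox1 and Obox2 is therefore uncertain, while most positions of Obox5 and Obox7 mark 1 gene.

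**Figure D4:**
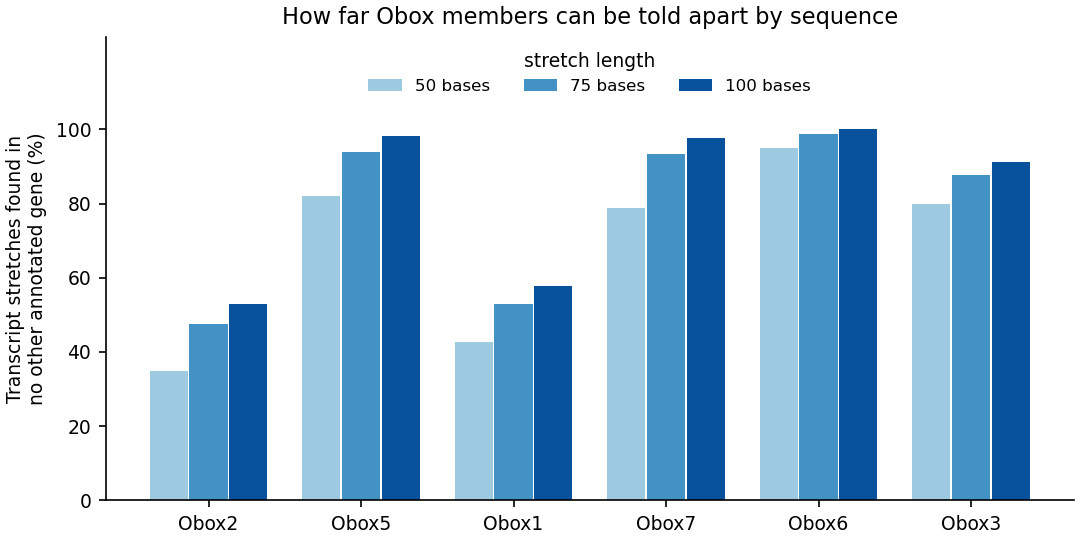
Share (%) of transcript stretches of 50, 75 or 100 bases found in no other annotated gene, for each Obox member (GENCODE M21). Obox2 and Obox1 are lowest, at 34.9 and 42.6% for 50 bases, and the other 4 lie at 78.9% or above.

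The ranked genes whose log2 level over the 6 libraries followed the summed Obox level most closely were Gemin6 (Pearson r = 0.992), Tex30 (0.991), Tcl1b5 (0.990), Pms1 (0.988) and Gab3 (0.988). The ranking covered 7973 tested genes averaging at least 10 CPM, with Obox symbols and unnamed gene models (Gm and Rik symbols) left out. Gemin6 encodes a subunit of the SMN complex, Pms1 a mismatch repair protein, Gab3 a docking protein and Tcl1b5 a member of the oocyte-enriched Tcl1 family. These are descriptions over 6 points that share library and depth with the Obox values, with no test. Like the Obox sum, each was highest in WT replicate 1 and lowest in WT replicate 2; Tcl1b5 had 88.8, 93.7 and 92.2 CPM in Nat10 cKO libraries, against 135, 87.0 and 112 CPM in WT libraries.

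Other homeobox genes of oocytes and early embryos changed in both directions. Of 50 listed, 28 were tested, and under TMM scaling 8 rose and 7 fell (53.6% called, beside 35.0% of all tested genes, 17.4% higher and 17.6% lower). In the values as deposited 4 rose and 0 fell, beside 7.97% of all tested genes called. On per-read shares 4 rose and 6 fell, beside 22.1% of all tested genes called, 25.3% of those calls being higher. Under TMM scaling the median log2 change of the list was -0.05, beside 0.00096 for all tested genes. Nobox, a homeobox regulator of oocyte growth, rose to 1001 ± 137 CPM in Nat10 cKO libraries, against 606 ± 48.0 CPM in WT libraries. Sebox, an oocyte homeobox gene with a maternal role, fell to 120 ± 14.1 CPM in Nat10 cKO libraries, against 181 ± 5.70 CPM in WT libraries, and Zfhx3 fell to 26.9 ± 4.24, against 50.6 ± 8.05 CPM. The limma adjusted p-values of Nobox, Zfhx3 and Sebox lay between 0.000264 and 0.000600; as deposited, none of the 3 passed.

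Among 33 tested genes listed as regulators around embryonic genome activation, 10 fell and 4 rose, with a median log2 change of 0.03. The share called, 42.4%, was near the 35.0% of all tested genes. As deposited 0 fell and 2 rose, beside 7.97% of all tested genes called. On per-read shares 10 fell and 2 rose, beside 22.1% of all tested genes called. Under TMM scaling the falls were 4, 5 and 6 without Nat10 cKO replicate 1, Nat10 cKO replicate 2 and WT replicate 1, where 24.2, 22.8 and 25.6% of all tested genes were called. Dppa4, a chromatin factor upstream of Dux, rose to 38.6 ± 5.44 CPM in Nat10 cKO libraries, against 19.2 ± 1.80 CPM in WT libraries. The ETS factor gene Gabpa rose to 8.78 ± 2.41, against 2.58 ± 1.21 CPM. Tfap2c, of the AP-2 family, fell to 17.9 ± 1.77, against 33.7 ± 2.05 CPM, and Btg4, which works in mRNA decay rather than transcription, fell to 1600 ± 89.5, against 2607 ± 317 CPM; as deposited, neither of these falls passed.

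Early zygotic genes are, as a class, the targets of the activation that OBOX proteins take part in. Of 40 listed, 20 were tested; 8 rose and 4 fell (60.0% called, beside 35.0% of all tested genes), with a median log2 change of 0.43. The 8 genes that rose averaged 0.747 to 26.3 CPM in Nat10 cKO libraries, against 0.268 to 11.2 CPM in WT libraries. Among them, Usp17lc and Pramef25 passed the filter on low counts through their Nat10 cKO libraries, the group where they were higher. Their lowest WT library had 0.093 CPM each, and the WT libraries alone would not have passed them. Their calls are therefore not independent of the filter. The rises of the list were 3, 5 and 4 without Nat10 cKO replicate 2, WT replicate 1 and WT replicate 3, where 22.8, 25.6 and 23.3% of all tested genes were called. As deposited 8 rose and 2 fell, beside 7.97% of all tested genes called, 82.6% of those calls being higher. On per-read shares 6 rose and 4 fell, beside 22.1% of all tested genes called, 25.3% of those calls being higher. The 4 falls were Tcstv1, at 14.2 ± 2.21 CPM in Nat10 cKO libraries, against 104 ± 5.99 CPM in WT libraries, Tcstv3, at 4.91 ± 0.825, against 25.1 ± 4.66 CPM, Tmem92, at 1.44 ± 0.129, against 3.99 ± 0.471 CPM, and Sp110, at 154 ± 2.7, against 215 ± 8.47 CPM. As deposited, Tmem92 and Sp110 did not pass. The Tcstv genes have near-identical copies, among which reads may be split, so both values are uncertain.

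Of 31 tested oocyte identity genes, 16 rose and 7 fell (74.2% called, beside 35.0% of all tested genes), with a median log2 change of 0.26. As deposited 4 rose and 0 fell, beside 7.97% of all tested genes called, most of them higher. On per-read shares 6 rose and 7 fell, beside 22.1% of all tested genes called, 25.3% of those calls being higher. Sohlh1, 1 of the 16 rises under TMM scaling, averaged 1.52 CPM in Nat10 cKO libraries and 0.220 CPM in WT libraries. Its WT libraries alone would not have passed the filter on low counts, so its call is not independent of the filter. Zp2, a zona pellucida gene, averaged 5626 ± 948 CPM in Nat10 cKO libraries and 2883 ± 121 CPM in WT libraries; Padi6 and Nlrp5, of the subcortical maternal complex, averaged 6376 ± 618 and 2000 ± 135 CPM in Nat10 cKO libraries, against 3934 ± 424 and 1361 ± 116 CPM in WT libraries. As deposited, Padi6, Nlrp5 and Nobox did not pass, and on per-read shares Nlrp5 did not.

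Markers of other ovarian cells were low beside the oocyte genes. The 24 granulosa markers summed to 493 to 517 CPM in Nat10 cKO libraries, against 556 to 639 CPM in WT libraries, and the 16 blood markers to 41.4 to 44.8 CPM, against 51.3 to 56.0 CPM. The 16 theca, stroma and endothelium markers summed to 126 to 145 CPM in Nat10 cKO libraries, against 133 to 140 CPM in WT libraries. Of the tested genes of these lists, 7 of 22 (1 higher, 6 lower), 1 of 4 (lower) and 4 of 8 (1 higher, 3 lower) passed, beside 35.0% of all tested genes. The granulosa and blood shares, 31.8 and 25.0%, were below that, and the theca share was 50%. Inhbb of the granulosa falls and Cyp17a1 of the theca falls passed the filter on low counts through their WT libraries alone. That is the group where they were higher, so their calls are not independent of the filter. The rises of the granulosa list ranged over 0 to 3 with 1 library left out. Its falls were 2 to 3 when Nat10 cKO replicate 1 or 2 or WT replicate 1 or 3 was dropped. Those fits called 22.8 to 25.6% of all tested genes. The granulosa falls were 0 as deposited, beside 7.97% of all tested genes called. The theca falls were 1 as deposited and 1 when replicate 2 of either genotype was dropped. Dropping that Nat10 cKO library left 22.8% of all tested genes called, and dropping that WT library left 34.2%. The defining granulosa marker Foxl2 averaged 0.122 CPM in Nat10 cKO libraries and 0.040 CPM in WT libraries, and Fshr 0.798 and 1.01 CPM, while C1qc and Col3a1 had 0 reads in all 6 libraries. Serpine2, Esr2, Cyp19a1 and Nr5a2 led the granulosa sum, at 298, 67.8, 41.1 and 34.9 CPM in Nat10 cKO libraries, against 322, 134, 52.1 and 29.6 CPM in WT libraries. C1qb, H2-Aa, Cd68 and Csf1r led the blood sum, at 32.1, 7.32, 2.23 and 0.577 CPM in Nat10 cKO libraries, against 43.9, 6.71, 1.78 and 0.907 CPM in WT libraries. Pecam1, Cnn1, Myh11 and Tek led the theca sum, at 58.3, 34.8, 26.0 and 13.1 CPM in Nat10 cKO libraries, against 40.7, 37.5, 39.4 and 13.7 CPM in WT libraries. Inha, the 1 granulosa gene that rose, averaged 5.51 CPM in Nat10 cKO libraries and 2.00 CPM in WT libraries. The part of these markers in the Obox values was not tested. In pools of oocytes, fewer cells of a type, less RNA per cell and transcripts of the oocyte itself cannot be told apart.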

How the data were processed

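Poly(A) RNA of 6 pools of 10 oocytes was amplified by Smart-seq2 per the labels' protocols. Trim Galore 0.6.7, STAR 2.7.10a, featureCounts and mm10 were used per the submitters' processing notes; the sources used here do not give the annotation, the strand setting or how multi-mapping reads were handled. The deposited column of WT replicate 1 holds read counts. The other 5 deposited columns hold a scaled signal, whole reads times 1 factor per library. No source used here states the formula of the factor. Each column was divided by its smallest value, which recovered whole reads (tolerance 0.001) for 100% of its values.

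Genes were filtered with filterByExpr (minimum count 10). Limma (trend, robust) was run on log2(TMM-scaled CPM + 1) over 18353 genes, two-sided, with Benjamini-Hochberg adjustment and a threshold of 0.05; fold changes on this scale understate low genes. Alternatives were other scalings, no filter, pseudocounts of 0.5 and 0.1, edgeR and DESeq2 on recovered reads, a replicate block and leaving out each library. The fits were tested on simulated data. For shares, an exact permutation test enumerated all 20 assignments of libraries. The summed Obox level was given no test, and shares no adjusted p, a change from the design.

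The members and gene lists were chosen with earlier results of these data known. Named by rule were Nat10, the members, other tested Obox rows, 4 genes per list by smallest p (by abundance for markers) and 5 genes by likeness to the Obox sum. Zp3, Gdf9, Zar1, Obox8, Foxl2, Fshr, C1qc, Col3a1, Usp17lc, Pramef25, Sohlh1, Inhbb, Cyp17a1 and Inha were named after their values were seen. Of the genes the rule named, 1 is not reported here. Positions and lengths are from GENCODE M21 (GRCm38, the assembly of mm10), which gave 1 gene for 53180 of 55291 symbols. Versions were limma 3.58.1, edgeR 4.0.16 and DESeq2 1.42.0 under R 4.3.3, and Biopython 1.88, pandas 2.3.3, numpy 2.4.6 and matplotlib 3.10.9 under Python 3.11.15.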

Additional observations from a re-analysis of the deposited data

How the results depend on the processing

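Among the 5 tested Obox members, 0 passed in every setting run other than 2: 2 members passed with the deposited factors on per-read shares and 3 without WT replicate 2, so leaving out 1 library gave 0 to 3. Under TMM scaling with all 6 libraries, the 5 tested genes of the Obox cluster were the members themselves. The counts for the cluster, 2 and 3, are those of the members and no separate result. Among other Obox rows 0 passed in every setting. The summed Obox level differed by -0.30 to -0.06 (log2) with 1 library left out, by 0.19 in the values as deposited and by -0.39 on per-read shares. As deposited, the log2 changes of Obox1, Obox2 and Obox5 turned to 0.14, 0.15 and 0.24; that of Obox7 turned to -0.14 on per-read shares and -0.034 without WT replicate 2 (-0.034 to 0.16 with 1 library left out), and that of Obox4-ps3 to -0.0053 without it. The share differences of Obox2, Obox1, Obox5 and Obox7 kept their signs, at -1.25 to -0.949, -0.803 to -0.713, 0.912 to 1.14 and 0.766 to 1.01 percentage points with 1 library left out.

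All genes called numbered 1462 as deposited and 4055 on per-read shares, and 4308 to 6683 with 1 library left out. Of the calls, 49.7% were higher under TMM, 82.6% as deposited and 25.3% on per-read shares. Genes called over the 7 lists numbered 73, against 23 as deposited and 53 to 76 with 1 library left out. Also turned as deposited were Serpine2 (0.25), Cyp19a1 (0.031), Cnn1 (0.24), Tek (0.26), Gemin6 (0.27), Tex30 (0.25), Tcl1b5 (0.10), Pms1 (0.28) and Gab3 (0.24). H2-Aa turned to -0.095 on per-read shares and to -0.075 when Nat10 cKO replicate 2 was left out. Tek turned to 0.063 on leaving out that library and to 0.0068 on leaving out WT replicate 3 (range -0.21 to 0.063). Early zygotic rises were 5 without the filter, where 4931 of 32265 genes were called. The cause of these shifts was not tested.

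Unshared stretches of 75 and 100 bases made up 52.8 and 57.7% of Obox1, 47.4 and 52.8% of Obox2, 87.7 and 91.1% of Obox3, 94.0 and 98.2% of Obox5, 98.7 and 100% of Obox6, and 93.5 and 97.7% of Obox7.

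Same-numbered libraries deviated from their group means with correlations of 0.079, 0.075 and -0.12, so the numbers were not taken as pairs. With the replicate number as a block, 6234 genes and 0 Obox members were called. In this balanced design the block cannot change a mean difference, so it bears on the calls alone. Obox3 and Obox6, at 4 to 24 reads per library, are limited by counting.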
